A study of Homo sapiens with 2 samples.

Results

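The histone genes were 81 of the 33538 genes counted in a pool of A549 cells: the 71 features whose names start with HIST1H, HIST2H, HIST3H or HIST4H, which are the replication-dependent genes, and 10 genes of histone variants, H2AFX, H2AFZ, H2AFY, H2AFY2, H2AFV, H2AFJ, H3F3A, H3F3B, H1F0 and H1FX. They were chosen by name alone. Core histones H2A, H2B, H3 and H4 form the protein spool around which DNA is wrapped, and linker histone H1 binds where the DNA enters and leaves it. Replication-dependent genes lie in clusters, are transcribed while DNA is copied in S phase, and usually give short messages that end in a stem-loop instead of a poly(A) tail. Variant genes stand alone, mostly give ordinary polyadenylated messages, and supply histones outside S phase or for special uses such as DNA repair, in which H2AFX acts.

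The cells were A549, a human lung adenocarcinoma line, with Cas9 under a doxycycline-inducible promoter. A lentiviral library of 100 gRNAs against 25 genes and 20 Non-Targeting gRNAs was brought in at low multiplicity, and after puromycin selection Cas9 was switched on for 2 days, with harvest 5 days later. All cells came from 1 pool, so every group shares the Cas9 and the treatments, and no group has a replicate culture. The target pools and the Non-Targeting cells differ in the gRNA detected. A targeting gRNA directs Cas9 to cut a gene and a Non-Targeting one does not, and the part of the cut itself was not tested. RNA was captured by its poly(A) stretch with a 10x Genomics 3′ kit, and each unique molecular identifier (UMI) stands for 1 captured molecule.

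There were 5744 cells with 210519208 UMIs in all and a median of 34625 per cell (range 513 to 161719), and 427 cells had under 10000. At least 3 of 10 lung epithelium and A549 markers were found in 98.7% of cells, against 1 cell for 6 fibroblast markers, 1 for 8 immune and blood markers, 0 for 5 endothelial markers and 33 cells (0.575%) for 5 markers of HEK293T, a line used to make lentivirus. The first share rests mainly on KRT8 (99.4% of cells), KRT18 (99.7%), AKR1B10 (98.5%), KRT19 (84.0%) and AGR2 (72.6%). EPCAM and MUC5AC were each seen in 13.8% of cells, and NKX2-1, SFTPB and SFTPC in 0.157%, 0.0174% and 0.505%. The 98.7% thus does not rest on these 3 lung genes. No second cell type was present in which to read the level of free RNA. Of the 22 targets whose pools were compared below, 21 had at least 50 UMIs in the pool and the Non-Targeting cells together. Their level in their own pool was 0.343 to 1.17 times that in Non-Targeting cells (median 0.834). The interval was wholly below 1 for 9 and above 1 for 0. It held 1 for 12, among them TDG, CHEK1 and KAT2B, whose lowest ratio rests on 3 UMIs (0.0689 to 1.05). Levels are given as UMIs per 1000000 UMIs of the same cells (CPM). A 3′ UMI counts a molecule once whatever its length. All intervals are 95% and cover counting error only.

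The stem-loop of the replication-dependent messages was looked up first, because it is the feature that sets them apart from polyadenylated messages. All 66 replication-dependent genes that could be placed by their identifier in GENCODE 44 had a stem-loop match within 250 bases after the stop codon, as did 1 of the 10 variants, H2AFX, and 73 of 19924 protein-coding genes in all (0.366%). The 9 sequences shown are those of HIST1H4C, of 3 other genes called higher, of the 4 called lower and of H2AFX, chosen to set the 2 directions side by side, 5′ to 3′ on the gene's strand (GRCh38), with the 16 bases of the stem-loop in capitals.
HIST1H4C (chr6:26104312-26104337, plus strand): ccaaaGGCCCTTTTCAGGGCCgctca
HIST1H1B (chr6:27866792-27866817, minus strand): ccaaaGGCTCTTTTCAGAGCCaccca
HIST1H1D (chr6:26234212-26234237, minus strand): taaacGGCTCTTTTCAGAGCCaccca
HIST2H2AC (chr1:149887386-149887411, plus strand): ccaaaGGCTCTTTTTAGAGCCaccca
HIST1H2AC (chr6:26124664-26124689, plus strand): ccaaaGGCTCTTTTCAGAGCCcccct
HIST3H2A (chr1:228457364-228457389, minus strand): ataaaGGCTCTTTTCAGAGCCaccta
HIST1H2BD (chr6:26158582-26158607, plus strand): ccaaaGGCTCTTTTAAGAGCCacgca
HIST1H4H (chr6:26285126-26285151, minus strand): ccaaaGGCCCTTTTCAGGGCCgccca
H2AFX (chr11:119094893-119094918, minus strand): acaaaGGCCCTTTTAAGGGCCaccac
The 16 bases of HIST1H1B and HIST1H1D are the same as those of HIST1H2AC and HIST3H2A, and those of HIST1H4C the same as those of HIST1H4H. As described below, the first gene or genes in each of these comparisons were higher, and the others lower, in cells with much PCNA and MCM5. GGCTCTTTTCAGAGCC was held by 36 genes, and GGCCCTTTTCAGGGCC and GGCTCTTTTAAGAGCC by 10 each.

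Replication-dependent genes gave 286167 UMIs, or 1359 CPM (0.136% of all UMIs), and the 10 variant genes 838902, or 3985 CPM (0.398%). HIST1H4C, one of the genes for histone H4, held 221253 of the replication-dependent UMIs (77.3%). Without it the other 70 had 64914 UMIs, or 308 CPM. Of the 71 genes, 13 had at least 1000 UMIs, 22 had at least 100 but under 1000, 24 had under 100 and 12 had none. The 12 without a UMI were HIST1H2AA, HIST1H2AD, HIST1H2BA, HIST1H3D, HIST1H4F, HIST1H4G, HIST1H4K, HIST2H2AA3, HIST2H3A, HIST2H3C, HIST2H3PS2 and HIST3H3. Some of these, such as HIST2H2AA3, HIST2H3A and HIST2H3C, have near-identical copies, so reads from them may have been discarded or given to another gene.

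By histone type, H4 genes held 78.2% of the replication-dependent UMIs, H1 genes 13.1%, H2A genes 5.46%, H2B genes 2.53% and H3 genes 0.772%. The 4 core types, which the nucleosome holds in equal number, thus did not have equal numbers of captured messages. HIST1H1C, a linker histone gene, was second with 20177 UMIs and was seen in 82.0% of cells. The linker gene HIST1H1D followed with 9261 UMIs in 38.9% of cells, and the linker gene HIST1H1E had 6055. Among the H2A genes HIST1H2AC had 5144, HIST2H2AC 4241, HIST3H2A 3259 and HIST1H2AG 1262. The linker gene HIST1H1B had 1914 UMIs in 13.1% of cells. The H2B genes with at least 1000 were HIST1H2BJ (1408), HIST1H2BD (1197), HIST1H2BC (1161) and HIST1H2BN (1141). By cluster, the 55 HIST1 genes on chromosome 6 gave 276515 UMIs, the 12 HIST2 genes 5884, the 3 HIST3 genes 3433 and HIST4H4 335.

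Of the variants, H3F3A and H3F3B, which both encode the replacement histone H3.3, had 260727 and 193861 UMIs. H3F3A was seen in 98.4% of cells, and as it has processed pseudogenes its count is less certain. H2AFZ, a gene for the H2A.Z found at promoters, had 157563 UMIs, and H2AFV, the other H2A.Z gene, 45338. H2AFJ had 88677, H1FX 35813, the macroH2A gene H2AFY 34499, H1F0 6345, and the second macroH2A gene H2AFY2 3871. H2AFX had 12208 UMIs in 56.8% of cells. Hence 7 variant genes each had more captured UMIs than any replication-dependent gene other than HIST1H4C, which with capture by poly(A) is no ranking of their levels in the cells.

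To relate the histone genes to S phase, cells were put in 5 groups of equal size by their UMIs of PCNA, the clamp of the replicative polymerases, and MCM5, a subunit of the replicative helicase, per 10000 UMIs. Each group held 1148 or 1149 cells. The median UMIs per cell rose with the order, from 26108, 33095 and 34573 to 39230 and 39314, and the lowest group held 261 of the 427 cells under 10000 UMIs, so depth moved with the order. The replication-dependent sum was 595, 688, 909, 1497 and 2792 CPM from the lowest to the highest group, which is 4.69-fold (log2 2.23, 2.21 to 2.25). Without HIST1H4C it was 248, 245, 240, 294 and 488 CPM. The difference without HIST1H4C thus lay in the upper groups. The variant sum was 3139, 3631, 4159, 4363 and 4338 CPM, or 1.38-fold (log2 0.47).

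A gene was called higher or lower where its CPM, after 1 was added, differed by at least 1.5-fold between the highest and the lowest group, given at least 200 UMIs in the 2 groups together. This was met by 11079 genes, of which 10.4% were called higher and 3.96% lower, with a median log2 difference of 0.03. Of the 71 replication-dependent genes, 19 had enough UMIs, and of these 11 were higher, 4 lower and 4 neither, with a median log2 of 1.20. The other 52 had too few UMIs, and a gene silent in one group could pass only through the other, so these counts do not stand for all 71. All 10 variants had enough UMIs, with 5 higher (2 after thinning each cell to 10000 UMIs), 0 lower and a median log2 of 0.58.

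**Figure D1:**
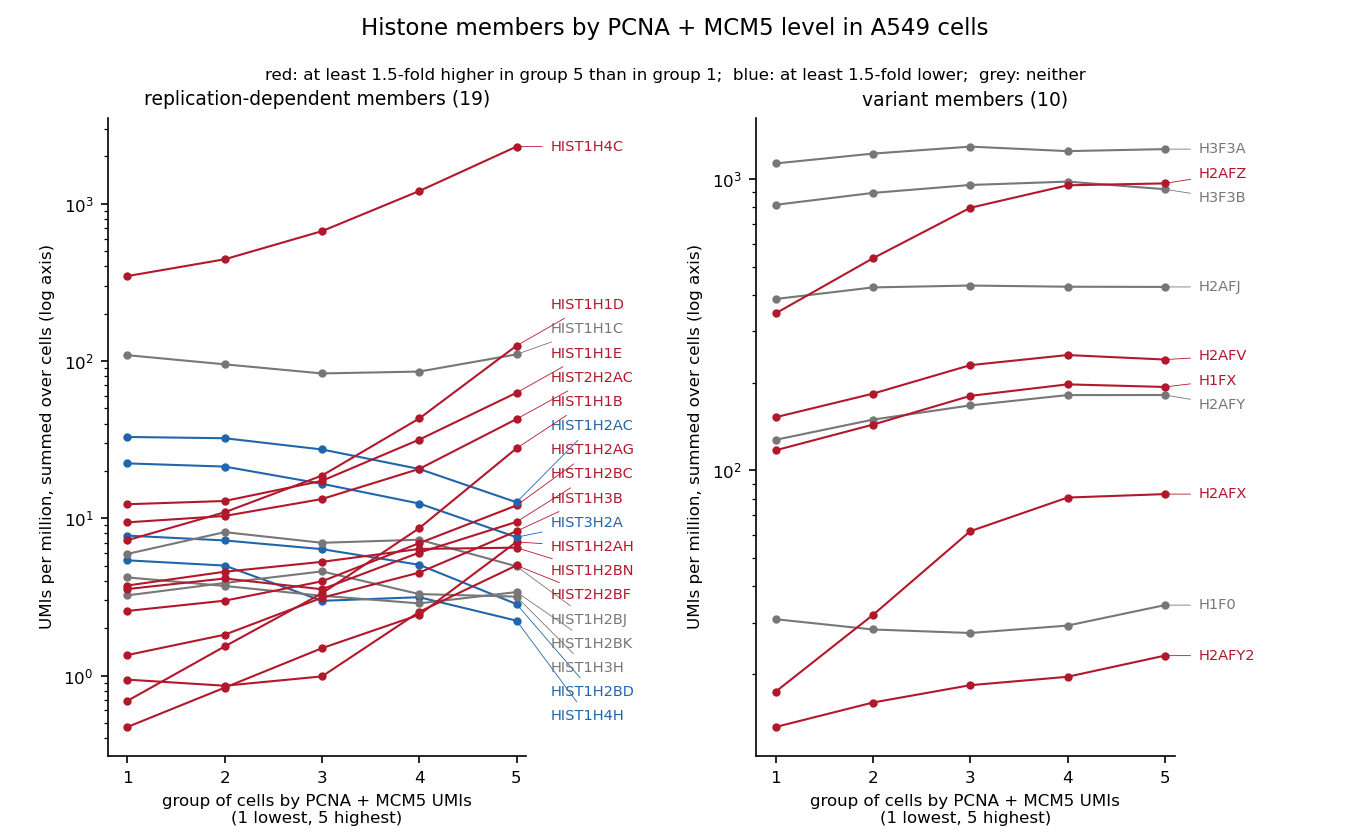
Level of each histone gene with enough UMIs (CPM, log axis) in 5 groups of cells of equal size by PCNA and MCM5, for 19 replication-dependent genes (left) and 10 variant genes (right). Red lines are called higher and blue lines lower in the highest than in the lowest group; HIST1H4C runs from 346 to 2305 CPM, and HIST3H2A, HIST1H2AC, HIST1H2BD and HIST1H4H run downwards.

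The linker histone genes held both the largest difference and one of the smallest. HIST1H1B was at 0.691, 1.53, 3.33, 8.65 and 27.8 CPM, a difference of 40.3-fold (26.5 to 64.5) that rests on 22 UMIs in the lowest group. HIST1H1D was at 7.25, 10.9, 18.7, 43.1 and 125 CPM, or 17.2-fold (15.1 to 19.7). HIST1H1E was at 12.3, 12.9, 17.3, 31.6 and 62.8 CPM, 5.11-fold. All 3 were highest in the highest group, with most of the difference above the third group. HIST1H1C, the linker gene with the most UMIs, was at 109, 95.2, 83.3, 85.6 and 110 CPM and its extreme groups were 1.01-fold apart. At the top of the order HIST1H1D was thus above HIST1H1C, and at the bottom far below it.

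Among the core histone genes HIST1H4C was at 346, 443, 669, 1203 and 2305 CPM, or 6.65-fold (6.52 to 6.79). The H2A gene HIST1H2AH was at 0.471, 0.838, 1.49, 2.43 and 7.07 CPM, 15.0-fold (8.97 to 27.1). HIST2H2AC, another H2A gene, was at 9.42, 10.3, 13.2, 20.6 and 42.7 CPM, 4.54-fold. These 3 genes had their highest level in the highest group. HIST1H3B, the only H3 gene called, went from 1.35 to 8.28 CPM (6.13-fold), the H2B gene HIST2H2BF from 0.942 to 5.01 (5.32-fold) and HIST1H2AG from 2.57 to 12.1 (4.69-fold). The H2B gene HIST1H2BC was at 3.55, 4.14, 3.54, 6.04 and 9.48 CPM (2.67-fold). HIST1H2BN had the smallest called difference, from 3.74 to 6.50 CPM (1.74-fold, 1.40 to 2.17).

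The 4 lower genes were 2 H2A, 1 H2B and 1 H4 gene. HIST1H2AC, an H2A gene, was at 32.9, 32.3, 27.4, 20.6 and 12.6 CPM, 2.60-fold lower in the highest group (2.35 to 2.89). HIST3H2A, also an H2A gene, was at 22.3, 21.3, 16.6, 12.4 and 7.58 CPM, 2.95-fold lower (2.59 to 3.36). HIST1H2BD, an H2B gene, was at 7.75, 7.23, 6.36, 5.06 and 2.85 CPM, 2.72-fold lower (2.19 to 3.40). In all 3 the level stepped down at each group. HIST1H4H was at 5.40, 5.00, 2.99, 3.15 and 2.23 CPM, 2.42-fold lower (1.88 to 3.12). HIST1H2BJ, HIST1H2BK and HIST1H3H, with ratios of 0.834, 0.807 and 0.982, were neither.

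The annotated transcript ends were set beside these differences. In 17 of the 66 placed replication-dependent genes at least 1 transcript model ended 100 or more genomic bases past the stem-loop, and in 49 none did. Any model of the gene counted, and whether the stem-loop lies in an exon of that model was not looked up. The farthest ends lay 37155 bases past it for HIST1H2BC, 29196 for HIST2H2BF and 22592 for HIST3H2A, so such models may be spliced. All 4 lower genes were among the 17, as were HIST2H2BF, HIST1H2BC and HIST1H2BN of the higher genes and HIST1H2BJ and HIST1H3H of those that were neither. The 9 such genes with enough UMIs had a median log2 difference of -0.22 (-1.44 to 1.63), and the 9 without such a model, HIST1H4C, HIST1H1B, HIST1H1D, HIST1H1E, HIST1H2AG, HIST1H2AH, HIST2H2AC, HIST1H1C and HIST1H2BK, had 2.26 (-0.24 to 4.09). HIST1H3B was not placed. The ranges overlap, and the split is a description with no test. HIST1H2AC, HIST3H2A, HIST2H2BF and HIST1H2BN carry the same stem-loop letters as HIST1H1B and have a model past the stem-loop. The first 2 were lower, and the last 2 higher (log2 1.63 and 0.66). The variant H2AFX also has a model that runs past its stem-loop, and was higher. Whether the counted molecules ended at the stem-loop or past it cannot be told from gene counts.

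**Figure D2:**
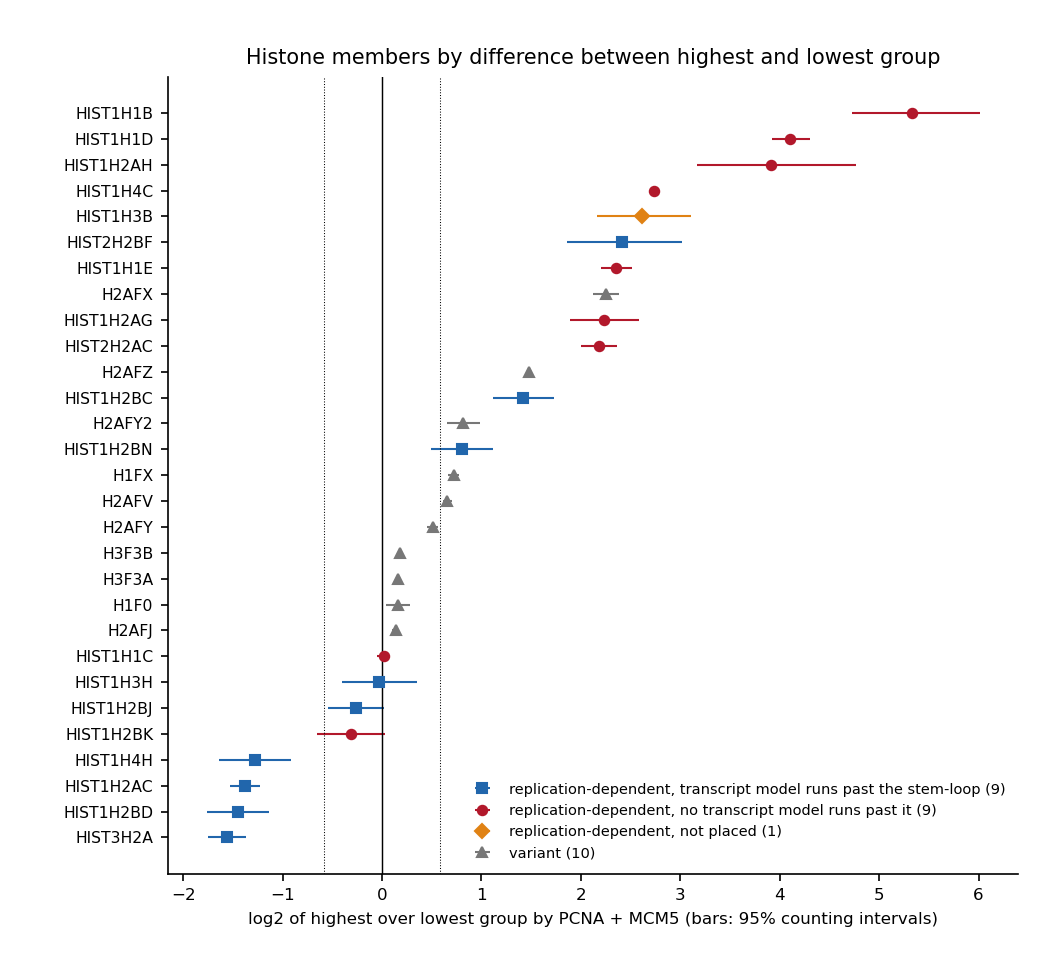
Log2 of the level in the highest over the lowest group of cells by PCNA and MCM5, with 95% counting intervals, for 29 histone genes. Blue squares are genes with a transcript model that runs past the stem-loop, red circles those without, the orange diamond is not placed, and grey triangles are variants; dotted lines mark 1.5-fold, the 4 lowest genes are all blue squares, and the 4 highest are all red circles.

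Many H2A and H2B genes lie head to head with a short stretch between their starts. There were 14 such pairs of replication-dependent genes with starts within 1000 bases on opposite strands, and in 3 both had enough UMIs. HIST1H2BC and HIST1H2AC, 219 bases apart, had log2 differences of 1.20 and -1.31. HIST1H2BJ and HIST1H2AG, 248 bases apart, had -0.22 and 1.87, and HIST1H2BK and HIST1H2AH, 251 bases apart, had -0.24 and 2.46. In none of the 3 pairs were both genes called the same way. HIST2H2BE and HIST2H2AC, 236 bases apart, had -0.86 and 2.07, but HIST2H2BE had only 383 UMIs in all and was below the minimum.

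The stretch between HIST1H2BC and HIST1H2AC is shown because its 2 genes were called in opposite directions. It is the RefSeq promoter window of HIST1H2AC (GRCh38.p14, chr6:26123922-26124221, plus strand), which runs from 250 bases before to 50 bases after the start. Capitals mark matches on either strand to the CCAAT box, to the TATA box written as TATAAA, or to the octamer ATTTGCAT, which do not overlap here.
HIST1H2AC promoter: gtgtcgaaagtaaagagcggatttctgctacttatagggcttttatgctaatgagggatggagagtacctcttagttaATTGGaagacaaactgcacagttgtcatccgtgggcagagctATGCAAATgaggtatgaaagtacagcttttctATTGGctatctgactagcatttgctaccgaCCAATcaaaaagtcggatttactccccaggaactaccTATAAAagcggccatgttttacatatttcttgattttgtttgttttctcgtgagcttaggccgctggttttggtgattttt
The window holds all 3 motifs. Windows were found for 75 of the 81 genes, 66 replication-dependent and 9 variant. CCAAT was in 84.8% of the 66 replication-dependent windows, TATAAA in 66.7% and ATTTGCAT in 39.4%, against 35.7%, 12.0% and 1.8% of all 27305 RefSeq windows. The motifs did not fall evenly on the types. CCAAT was in all windows of the H1, H2A, H2B and H3 genes but in 3 of 13 H4 windows, and ATTTGCAT was in 14 of 18 H2B and 11 of 16 H2A windows, 1 of 13 H3 windows, and no H1 or H4 window. Of the 9 windows of genes called higher, CCAAT was in 9, TATAAA in 6 and ATTTGCAT in 4, and of the 4 of genes called lower, in 3, 2 and 1. A match is a run of letters and not a measured site.

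Of the variants, H2AFX, whose message also carries the stem-loop, differed most between the groups. It was at 17.4, 31.9, 61.8, 80.6 and 82.9 CPM, or 4.77-fold (4.36 to 5.22). H2AFZ was at 346, 535, 797, 952 and 966 CPM, 2.79-fold. Both had most of their difference below the fourth group, whereas HIST1H4C and HIST1H1D had most of theirs above the third one. H2AFY2, H1FX and H2AFV were 1.76-, 1.65- and 1.58-fold higher, but with each cell thinned to 10000 UMIs their log2 was 0.33, 0.46 and 0.33 and they were not called, while H2AFX (1.40) and H2AFZ (0.99) were. H2AFY (1.42-fold), H3F3B (1.13), H3F3A (1.12), H1F0 (1.12) and H2AFJ (1.10) were below the 1.5-fold limit, so both H3.3 genes were among those that differed least.

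To separate S phase from the later G2 and M phases, cells were also split at the 75th percentile of an S phase list of 36 genes, which includes PCNA and MCM5, and of a G2/M list of 51 genes, neither with any histone gene. This gave 3328 cells with neither list high, 980 with the S phase list high, 456 with both and 980 with the G2/M list high. These are ranges of a score, not cell types, and 472 and 312 cells lay within 10% of the 2 limits. The replication-dependent sum was 699, 2192, 3851 and 1117 CPM in these ranges, in the order given, and the variant sum 3386, 4004, 5023 and 5104 CPM. The first was thus highest with both lists high and lower again with the G2/M list alone, and the second stayed near its highest level there.

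Against cells with neither list high, 12 of 23 replication-dependent genes with enough UMIs were higher and 5 lower with the S phase list high (background 7.01% and 2.72% of 12369 genes), and 13 of 22 were higher and 6 lower with both high (background 9.30% and 6.66%). With the G2/M list high, 7 of 21 were higher and 1 lower (background 6.98% and 5.61%). HIST1H1D was at 12.8, 107, 140 and 21.3 CPM in the 4 ranges. HIST1H1B was at 1.47, 20.8, 36.7 and 4.93 CPM. HIST1H1E was at 13.8, 49.3, 92.5 and 17.8 CPM. With the G2/M list alone all 3 were far below their level with the S phase list high, though HIST1H1B and HIST1H1D were still called higher than with neither list high. HIST1H1C was at 99.5, 98.0, 131 and 65.5 CPM and was the only replication-dependent gene called lower there. The genes that were lower by PCNA and MCM5 went the other way and came back: HIST1H2AC was at 29.4, 11.2, 10.0 and 30.6 CPM, and HIST3H2A at 19.8, 7.18, 5.62 and 16.4 CPM. HIST1H2BJ, at 6.58, 4.83, 3.44 and 10.5 CPM, was called lower with both lists high and higher with the G2/M list alone.

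Among the variants, H2AFX was at 18.0, 62.7, 143 and 121 CPM, so it stayed high with the G2/M list alone, where HIST1H4C, at 458, 1780, 3257 and 870 CPM, did not. H2AFZ was at 460, 862, 1215 and 1205 CPM. With the G2/M list high 5 of 10 variants were called higher (H2AFX, H2AFZ, H1FX, H2AFV and H3F3B) and 0 lower, with the S phase list high 3 (H2AFX, H2AFZ and H2AFY2) and with both high 5 (H2AFX, H2AFZ, H1FX, H2AFV and H1F0). H3F3A, at 1208, 1238, 1262 and 1313 CPM, and H2AFJ were called in none of the 3.

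**Figure D3:**
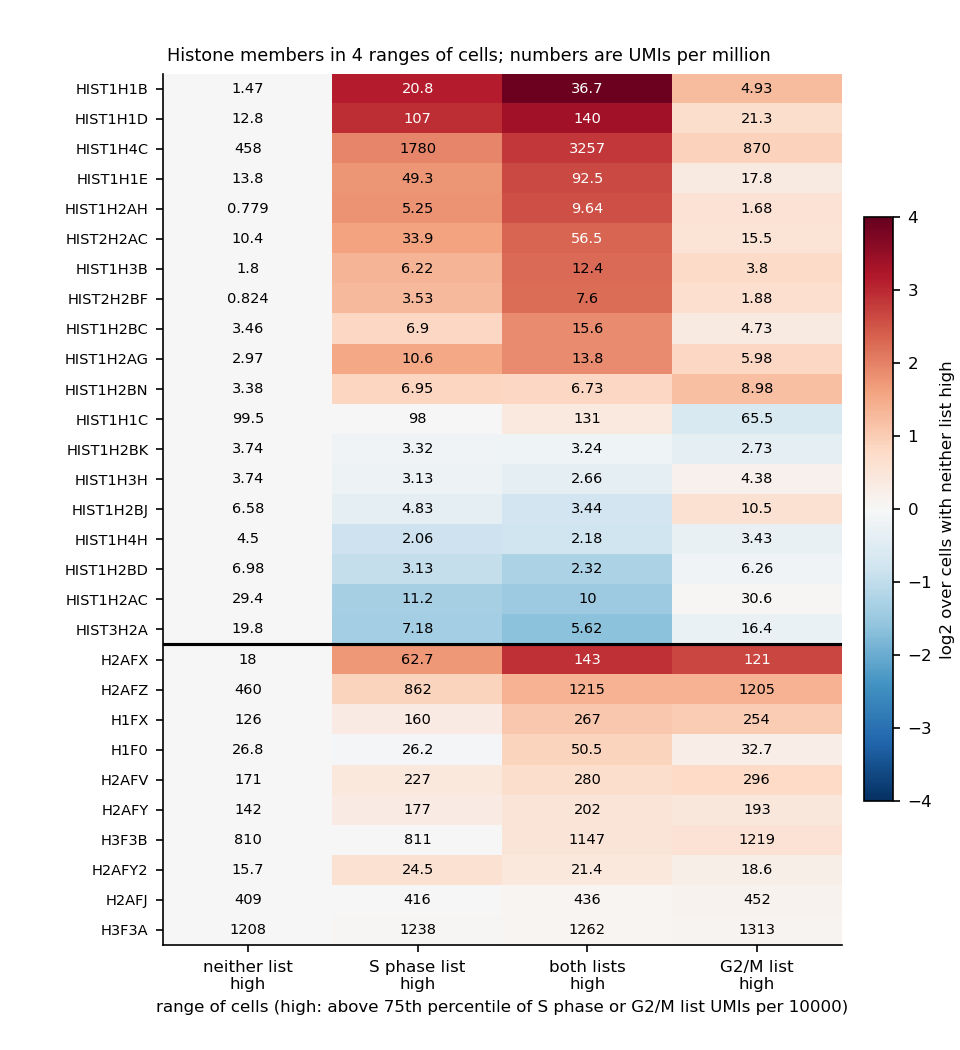
Levels of 29 histone genes (numbers, CPM) in 4 ranges of cells set by the S phase and G2/M lists; colour is the log2 difference from cells with neither list high, red higher and blue lower. The upper block is replication-dependent and the lower block variant; H2AFX and H2AFZ stay red in the G2/M column, where HIST1H1E and HIST2H2AC are near white.

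A finer order used 20 equal bins of cells by the S phase list. HIST1H4C had 16.9% of its highest bin's level in bin 10 and 73.6% in bin 17, and HIST1H1D 7.86% and 32.5%. H2AFX had 47.4% in bin 10 and 96.1% already in bin 12, and H2AFZ 99.8% in bin 12. H2AFX and H2AFZ thus reached their level in the middle of the order, and HIST1H4C and HIST1H1D near its top. Other members of either kind did not keep to this: H2AFY2 was highest in bin 20 and H1F0 in bin 19, while HIST3H2A, HIST1H2AC and HIST1H2BD were highest in bins 1, 5 and 7. HIST1H1C was lowest in bin 15 (64.0 CPM) and highest in bin 20 (157 CPM). By Spearman correlation of the levels over the 20 bins, which share the library and the ordering, the pattern nearest to that of HIST3H2A was that of HIST1H2AC (0.93), and to that of HIST1H2BD, HIST3H2A (0.87). H2AFZ was nearest to H1FX (0.97), H2AFV to H3F3B (0.96) and H2AFX to H2AFZ (0.93).

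**Figure D4:**
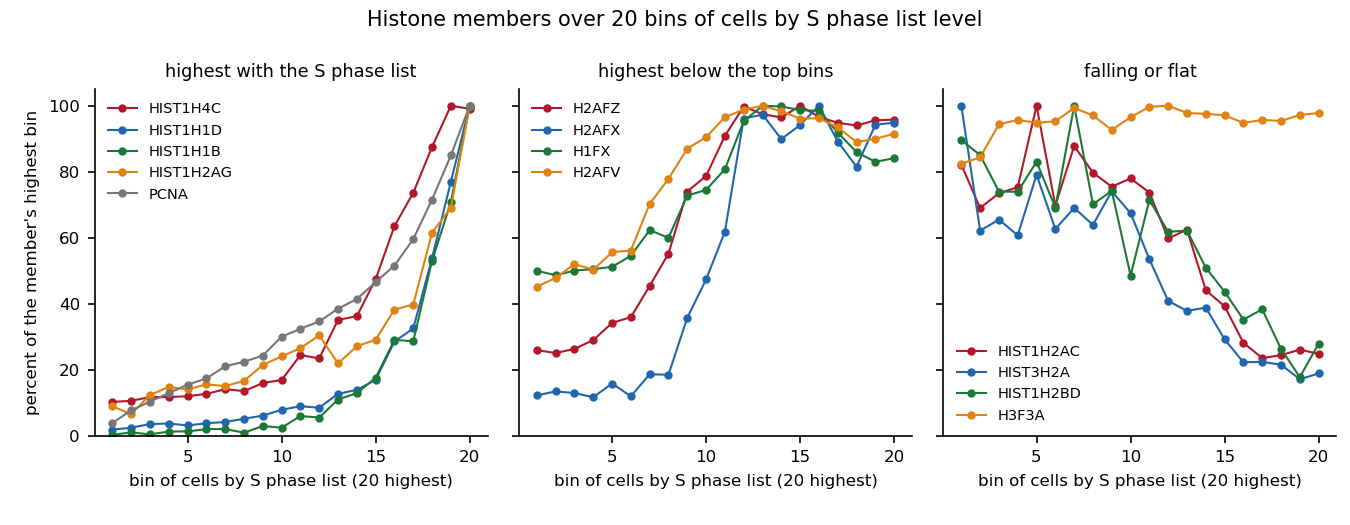
Level of named histone genes as a percent of the gene's own highest bin, over 20 equal bins of cells ordered by the S phase list. The replication-dependent genes and PCNA on the left reach their highest levels in the last bins, H2AFX and H2AFZ in the middle panel are near theirs from bin 12, and HIST1H2AC, HIST3H2A and HIST1H2BD on the right go down while H3F3A stays level.

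The same relations were read cell by cell after each cell was thinned to 10000 UMIs, which left 5317 cells. Over cells, Spearman correlations with PCNA and MCM5, the S phase list and the G2/M list were 0.38, 0.51 and 0.28 for HIST1H4C, 0.31, 0.40 and 0.27 for HIST1H1D, 0.22, 0.35 and 0.48 for H2AFX, and 0.38, 0.56 and 0.76 for H2AFZ. HIST1H4C thus had its largest value with the S phase list, and H2AFX and H2AFZ with the G2/M list. With PCNA and MCM5, HIST1H2AC had -0.12 and HIST3H2A -0.09, which in counts this sparse are weak. The thinned share of cells with a UMI of HIST1H1D was 8.83% in the lowest and 41.7% in the highest group (14.6% and 72.6% before thinning). It was 0.752% and 13.8% for HIST1H1B (1.48% and 37.6%), and 18.5% and 46.1% for H2AFX (29.9% and 80.9%). For HIST1H2AC it was 25.1% and 12.2% (46.7% and 35.0%), and for HIST3H2A 17.4% and 8.37% (34.0% and 22.8%). The directions were those of the CPM, and the gaps for the first 3 genes were wider before thinning.

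The machinery that makes and handles histones was read from a pair of lists. Of 21 genes of histone message transcription and 3′ end processing with enough UMIs, 11 were higher in the highest group and 0 lower, with a median log2 of 0.69, beside 10.4% higher and 3.96% lower over all genes. They include the activator E2F1 (10.0-fold), CDK2 (8.37) and its cyclin gene CCNE1 (2.43), and the histone transcription factors NPAT (2.15) and CASP8AP2 (2.76). SLBP, which binds the stem-loop, went from 31.9 to 89.1 CPM (2.79-fold), and ERI1, an exonuclease that trims histone messages, was 2.49-fold higher. The others called were SRRT (2.09), CPSF3 (1.93), NCBP1 (1.73) and CSTF2 (1.68), while LSM10 (0.907), part of the U7 particle, was not called. Of 22 histone chaperone genes 10 were higher and 0 lower, with a median log2 of 0.56. ASF1B (12.0-fold) and the chromatin assembly factor genes CHAF1A (9.15) and CHAF1B (7.57) led, followed by the centromere chaperone HJURP (5.99) and NASP (3.48). SUPT16H (2.21) and SSRP1 (1.98), both subunits of FACT, were also higher, with ANP32E (2.15), NAP1L4 (1.66) and RBBP7 (1.64). HIRA (1.15), UBN1 (1.07), CABIN1 (1.10), ATRX (0.943), DAXX (1.49) and ASF1A (0.986), which serve H3.3 or both kinds of H3, were not called. Nor were RBBP4 (log2 0.57, just under the limit), IPO4 (1.45-fold), SET (1.25), NPM1 (1.24), NAP1L1 (1.10) and SPTY2D1 (1.01), of which RBBP4 is a subunit of the same assembly factor as CHAF1A and CHAF1B.

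Next, cells with exactly 1 gRNA above 3 UMIs were pooled by target to ask how the histone genes stood when a chromatin, metabolic or other gene was targeted. There were 3189 such cells, 2493 with a targeting and 696 with a Non-Targeting gRNA. Of the 25 target pools, 22 held 44 to 190 cells, and those of DNMT3A, DNMT3B and TRMT112 held under 40 and were not compared. In a pool, fewer cells in S phase and less histone RNA per cell cannot be told apart from the sum alone. Non-Targeting cells had 1455 CPM of replication-dependent and 4010 CPM of variant messages. Each of 15 Non-Targeting gRNAs seen in 10 or more cells was set against the others, and together they spanned a replication-dependent log2 of -0.98 to 0.87 (749 to 2608 CPM) and a variant log2 of -0.09 to 0.15. This is the spread that gRNAs without a target show here, and for the replication-dependent sum it is wide.

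The replication-dependent sum was below the Non-Targeting level in 18 of 22 pools and above it in 4, and without HIST1H4C it was below in 15. It was lowest in the pool of MVD, an enzyme of cholesterol synthesis, at 850 CPM (log2 -0.78, -0.84 to -0.71), where the 3 gRNAs gave -1.51, -0.27 and -0.68. MVD itself was not lower in that pool (1.17 times the Non-Targeting level, 0.873 to 1.55). In the pool of SUV39H1, a histone H3 lysine methyltransferase, the sum was 982 CPM (log2 -0.57), with gRNAs at -0.32, -0.93 and -1.15. The SUV39H1 message was at 0.503 times its Non-Targeting level (0.237 to 0.947). In the pool of TDG, a DNA glycosylase, the sum was 1073 CPM (-0.44). All 22 pool values lie within the range of the Non-Targeting gRNAs, but a pool joins several gRNAs. Single gRNAs of MVD (-1.51), CHEK1 (-1.30), PCGF5 (-1.29) and SUV39H1 (-1.15) were below that range, and a gRNA of EZH2 (-0.98) was at its edge. The 22 pools had 2 to 4 gRNAs each with 10 or more cells, far more in all than the 15 Non-Targeting ones. Some could thus fall below the lowest of 15 without any effect, and how many was not computed. The S phase list was at log2 -0.36 in the MVD, -0.27 in the SUV39H1 and -0.07 in the TDG pool, and with cells weighted to the same shares of the 4 ranges used above the sums were at -0.39, -0.37 and -0.39.

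RPL18 (-0.38), TUBB1 (-0.37) and DHODH (-0.36) followed, and the S phase list was lower still with RPL18 (-0.53) and DHODH (-0.51). Weighted to the ranges, these 2 pools turned to 0.12 and 0.21. TUBB1 had 0 UMIs in its pool and 0 in Non-Targeting cells, so its pool was low though no message of the target was seen. In it 21 of 21 replication-dependent genes with enough UMIs were below the Non-Targeting level, and the weighted sum was -0.26. These genes were read in the same cells and are not separate observations. The median log2 over 11811 genes was also below 0 there (-0.04), and the share of all genes below 0 was not counted. Of 31 histone genes with enough UMIs 3 were called lower in this pool, beside 3.12% of all genes. What a low pool says about its target was not tested. Without RPL18_gRNA3 the RPL18 pool was at -0.83, and without RPL18_gRNA2 at -0.26. The pool of CHEK1, the replication checkpoint kinase, was at -0.27, with gRNAs at -0.52, -0.16 and -1.30 and the S phase list at 0.02. ATAD2, a chromatin ATPase, gave the highest value (0.15). DNMT1, the maintenance DNA methyltransferase, was at 0.05 (-0.05 without DNMT1_gRNA3), and at 0.30 without HIST1H4C, the highest of all pools on that measure. SMARCD1, a SWI/SNF subunit, was at -0.25, and at 0.15 without HIST1H4C. The last value rests on 1 cell, which held 149 of the 1125 UMIs counted, and without it the value was -0.05 (305 CPM against 316). The variant sum ran from -0.17 (RPL18) to 0.13 (DNMT1), so its pools differed far less. It was below the range of the Non-Targeting gRNAs in 3 pools, RPL18 at 3564 CPM, DHODH at 3600 CPM (-0.16) and SUV39H1 at 3681 CPM (-0.12), and in the last all 3 gRNAs were below that range (-0.11, -0.10 and -0.16). Weighted to the ranges these were -0.06, -0.03 and 0.00, and the G2/M list was at -0.43, -0.58 and -0.47.

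**Figure D5:**
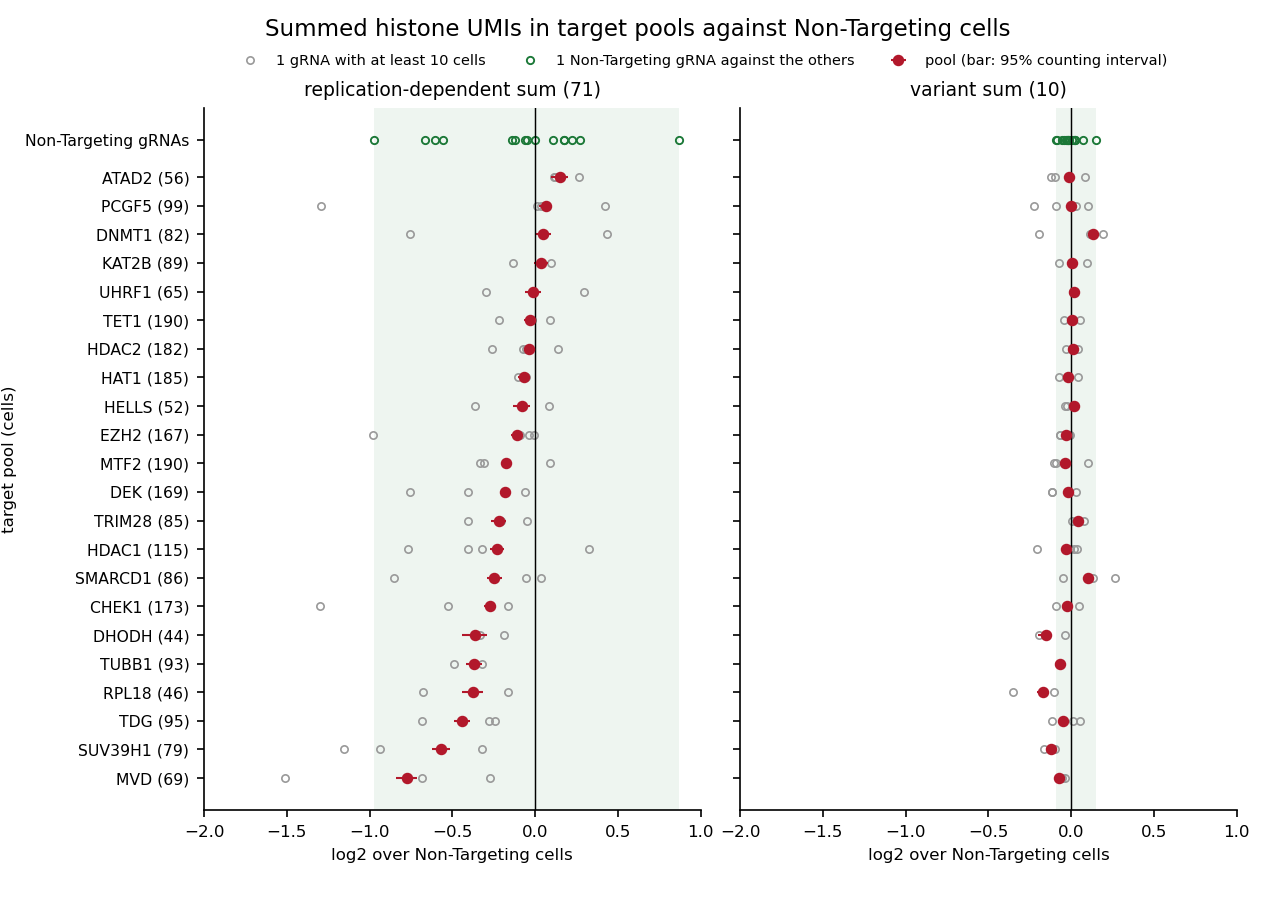
Log2 of the summed replication-dependent (left) and variant (right) CPM in 22 target pools over Non-Targeting cells. Red points are pools with 95% counting intervals, grey circles single gRNAs with at least 10 cells, and green circles and the shaded band the Non-Targeting gRNAs, whose band holds every replication-dependent pool point, MVD (-0.78) and ATAD2 (0.15) included.

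Gene by gene, 685 pairs of a histone gene and a pool had at least 50 UMIs in the pool and the Non-Targeting cells together. Of these, 10 (1.46%) were at least 1.5-fold higher and 57 (8.32%) lower, beside 1.69% and 3.12% of 260197 pairs over all genes. A histone gene measured in many pools is counted in each against the same Non-Targeting cells, so the pairs are not independent. With an interval that leaves out 1 as well, 40 remained, 8 higher and 32 lower. HIST1H1D was lower in 4 pools, at 27.1 CPM with CHEK1, 24.4 with MVD, 27.4 with RPL18 and 28.4 with TDG, against 44.8 in Non-Targeting cells. The background of genes called lower was 1.08%, 4.53%, 7.89% and 1.97% in these pools, in that order. With CHEK1 it was at 0.606 times that level (0.516 to 0.709) and below it with all 3 gRNAs. Across Non-Targeting gRNAs HIST1H1D ran from 13.6 to 176 CPM, which holds all 4 values. With pool and Non-Targeting cells weighted to the same shares of the 4 ranges, the log2 of HIST1H1D was -0.65 with CHEK1, -0.60 with TDG and -0.30 with MVD, and turned to 0.21 with RPL18. Other genes also recurred. HIST1H2BC was lower with MTF2, MVD, SUV39H1, TDG and TUBB1, at 2.36 to 3.41 CPM against 5.80, on 6 to 23 UMIs in a pool. Its Non-Targeting gRNAs ran from 2.61 to 8.60 CPM. HIST1H1B was lower with MVD, RPL18, TDG and UHRF1, on 10 to 14 UMIs in a pool.

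HIST1H4C was at 612 CPM with MVD and 702 with SUV39H1, against 1138 in Non-Targeting cells (ratios 0.537, 0.510 to 0.565, and 0.617, 0.588 to 0.646), and its Non-Targeting gRNAs ran from 519 to 1966 CPM. Weighted to the ranges, its log2 went from -0.90 to -0.42 with MVD and from -0.70 to -0.47 with SUV39H1. HIST1H1B was at 3.79 CPM with TDG against 10.8, within its Non-Targeting gRNAs, which had a lowest of 0.523 and a median of 8.45 CPM. H2AFX was lower with DHODH (34.2 CPM), RPL18 (35.6) and SUV39H1 (41.0) against 63.6, ratios of 0.538, 0.560 and 0.645. These lie below the range of its Non-Targeting gRNAs, 47.2 to 90.5 CPM. The G2/M list, with which H2AFX was high, was at log2 -0.58, -0.43 and -0.47 in these pools, and at least 67.4% of the cells in each had neither list high, against 55.3% of Non-Targeting cells. Weighted to the ranges, the log2 of H2AFX went from -0.88 to -0.23, from -0.82 to -0.39 and from -0.62 to -0.09, so that none was called. The background of genes called lower was 8.73% in the DHODH and 5.23% in the SUV39H1 pool. HIST3H2A was at 8.57 CPM with KAT2B, a histone acetyltransferase, against 15.3 (0.560), also below its Non-Targeting gRNAs (9.31 to 26.5 CPM), with gRNAs at 7.82 and 9.36 and a background of 2.50% called lower. The S phase list was at 0.25 in this pool and 25.8% of its cells had that list high, against 17.5% of Non-Targeting cells. Weighted to the ranges, the log2 of HIST3H2A was -0.73 in place of -0.77.

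In the SMARCD1 pool 3 replication-dependent genes were higher (background 1.94%), and 2 of them rested on 1 cell. HIST3H2A was at 42.6 CPM against 15.3, 2.79-fold (2.28 to 3.40), but 94 of its 137 UMIs (68.6%) were in a single cell, and without that cell it was at 13.5 CPM (log2 -0.17). HIST1H2BJ was at 13.7 CPM against 7.04, and without its top cell at log2 0.28. HIST1H2BK, an H2B gene, was at 6.85 CPM against 3.14, 2.18-fold (1.29 to 3.54), above control with 3 of 3 gRNAs, and 2.02-fold (1.17 to 3.33) without its top cell. Its Non-Targeting gRNAs ran from 0 to 5.90 CPM, and its 3 SMARCD1 gRNAs were all above that, the highest at 8.96 CPM. With the top cell left out of the pool for higher pairs, and of the Non-Targeting cells for lower pairs, 29 of the 40 pairs were still called. These were 28 of the 32 lower pairs and 1 of the 8 higher ones, HIST1H2BK with SMARCD1. The counts for the directions cannot be compared. The cell left out was 1 of 44 to 190 in a pool for higher pairs, but 1 of 696 Non-Targeting cells for lower pairs. It held a larger share of the gene's UMIs in every higher pair than in any lower pair. The check could thus change the lower pairs little, and does not show how firm they are.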

How the data were processed

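The authors ran Cell Ranger 3.1.0 against GRCh38 and deposited raw UMI counts of 33538 genes and of the gRNAs for 5744 cell barcodes of 1 pool; the annotation is not given in the sources used here. The submitters' notes also name R 4.2.0 and Seurat 4.1.0. All barcodes were kept, and doublets were treated only by leaving cells with 2 or more gRNAs out of the target pools. With 1 pool there are no replicates, so no test was run; values are sums of counts with exact Poisson, conditional binomial or Clopper-Pearson intervals, which cover counting error only. A total of 3 counts is the limit that a count of 0 allows.

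Members, lists and rules were chosen with earlier results of these data known. Values are given for members with at least 1000 UMIs or at least 1.5-fold apart, for variants, and in pools of at least 40 cells for members with at least 50 UMIs, at least 1.5-fold apart (1 CPM added) and with an interval that leaves out 1; the extreme cells, HIST1H2AH, HIST1H2BK, HIST1H3H and HIST2H2BE beside others were named after their values were seen. Comparisons of groups and ranges needed 200 UMIs. The calling steps were tested on simulated counts with counting error only. These leave out the spread between cells and between Non-Targeting gRNAs, so they cannot show how reliable the calls in pools are. Annotation was GENCODE 44, promoter windows RefSeq. Python 3.11.15, NumPy 2.4.6, SciPy 1.17.1, pandas 2.3.3, scikit-learn 1.9.0 and matplotlib 3.10.9 were used. Alternatives were other orderings of cells, thinning, depth limits, other gRNA calls and left-out gRNAs or cells.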

Additional observations from a re-analysis of the deposited data

How the results depend on the processing

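The log2 difference of the replication-dependent sum between the highest and lowest group by PCNA and MCM5, 2.23, was 2.43 with cells ordered by the S phase list, 1.62 by the G2/M list, 2.20 in cells of at least 10000 UMIs, 1.72 after thinning, 2.06 as a mean over cells and 0.97 without HIST1H4C, a setting chosen after seeing the data. That of the variant sum, 0.47, was 0.51, 0.80, 0.43, 0.27 and 0.48 under the first 5 of these, and 0.45 in Non-Targeting cells. The 11 replication-dependent genes called higher became 28 with no minimum on UMIs, the 4 called lower became 1 by the G2/M list and 2 with 10 CPM added, and the 5 variants called higher became 2 after thinning. Pools below the Non-Targeting level ran from 13, with cells weighted to the same ranges, to 18, and from 15 to 18 without single Non-Targeting gRNAs. With single gRNAs left out, the MVD pool ran from -0.94 to -0.59, SUV39H1 from -1.05 to -0.47, TDG from -0.61 to -0.30, CHEK1 from -0.70 to -0.23, RPL18 from -0.83 to -0.26 and ATAD2 from 0.11 to 0.19, and 7 of the 22 pools, all near 0, took both signs. Weighted to the ranges, 9 pools changed sign. Signs turned for HIST1H2BN as a mean over cells (-0.13), H1F0 with DHODH as a mean over cells (0.47), HIST1H1B (0.24), HIST1H1D (0.21) and HIST2H2AC (0.12) with RPL18 weighted to the ranges, and HIST3H2A with SMARCD1 without its top cell (-0.17); the cause was not tested, except that the last rests on that cell. For single genes and pools, 1255 of the other values stayed within their error and 286 moved. No paired analysis was possible because there is 1 pool of cells and no numbered replicates. Depth limits genes with under 200 UMIs in the extreme groups and pools with few cells.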

Other observations

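A few cells held many times more UMIs of some replication-dependent genes than other cells, though mostly a small share of the gene's total. The cell with the most HIST3H2A (94 UMIs of 15567 in the cell, gRNA SMARCD1_gRNA2) also had 104 UMIs of H2AFJ, 42 of H1FX, 26 of H1F0, 16 of HIST1H2BJ and 12 of HIST1H2AC, but 1 of HIST1H4C and 9 of H2AFZ. A second cell, with no called gRNA and 21793 UMIs, had 60 of HIST3H2A, 52 of HIST1H2BJ, 45 of HIST1H2AC, 10 of HIST2H2BE, 10 of HIST1H3B and 178 of H2AFJ, and 2 of HIST1H4C. Beyond these 2 cells no cell had more than 10 UMIs of HIST3H2A, 10 of HIST1H2BJ or 23 of HIST1H2AC. Both cells also had many UMIs of DHRS2 (175 and 149), of the stress response genes PPP1R15A (102 and 302) and TRIB3 (40 and 56), and of DDIT3 (124 and 19). ATF3 had 39 and 11. The most in any other cell was 206 of DHRS2, 40 of PPP1R15A, 40 of TRIB3, 100 of DDIT3 and 47 of ATF3. High counts of DHRS2, DDIT3 and ATF3 were thus not particular to these 2 cells. Only a few chosen genes outside the histones were read in these cells. HIST3H2A, HIST1H2AC and HIST1H2BJ are among the genes with transcript models that run past the stem-loop, and HIST1H4C is not. Other genes did not keep to this split. In the second cell HIST1H1C (18 UMIs), HIST1H2AG (5) and HIST1H2BK (4), without such a model, were at 8.62, 38.3 and 53.6 times their mean level. HIST1H2BN, which has such a model, had 0 UMIs there.

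Of the 17 UMIs of HIST1H2AE in all cells, 11 were in 1 Non-Targeting cell, which also had 12 of HIST1H2AG. Another cell, with a TRIM28 gRNA and 15318 UMIs, had 108 UMIs of HIST1H1C. These cells were picked out by their values.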
